A study of Mus musculus with 4 samples.

Results

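The albumin gene family and the genes that silence alpha-fetoprotein after birth were followed in livers of mice with a conditional knockout of NIPP1. The set held 8 genes chosen by name for their roles, and all of their probes were taken by gene name from the array files, which gave 11 of the 39429 probes on the array. They were the albumin cluster (Alb, Afp, Afm and Gc), the Afp repressors Zhx2 and Zfhx3, and the genes H19 and Gpc3, which are silenced together with Afp. The genes were not chosen by their values, although earlier results of these data were known.

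Alb, Afp, Afm and Gc are related genes on chromosome 5 that encode secreted plasma carrier proteins and are transcribed mainly in hepatocytes. Albumin is the major plasma protein of the adult, whereas alpha-fetoprotein is its fetal counterpart and falls to a low level in mouse liver within weeks of birth. Zhx2, the product of the locus once called Afr1, is needed in mice for the full postnatal silencing of Afp, H19 and Gpc3, and Zfhx3 (ATBF1) represses the AFP enhancer and promoter in human hepatoma cells. Persistent or renewed expression of AFP, H19 and GPC3 is a known feature of liver regeneration and of hepatocellular carcinoma.

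Total liver RNA came from 4 mice labelled as conditional liver knockouts of NIPP1 and from 4 control mice. Ppp1r8 encodes NIPP1, which binds protein phosphatase 1 in the nucleus and regulates it. All 8 mice were untreated males of a mixed strain, 2 months old. Each of 4 two-colour arrays, on 1 slide, carried the RNA of 1 knockout and 1 control mouse, and each mouse was used once. The knockout RNA carried Cy3 on arrays 1 and 2 and Cy5 on arrays 3 and 4. The labels used here name neither the Cre line nor the deleted exons, nor the alleles carried by the controls. No spot was saturated, and between 52.7% and 56.3% of spots in each channel had signal well above background. The number of arrays limits the precision. RNA of a whole liver was measured, so fewer cells of a type and less RNA per cell cannot be told apart.

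Ppp1r8 served as a check of the labels. Its brighter probe had log2 ratios of knockout over control of -0.60, -0.73, -0.74 and -0.63 on arrays 1 to 4, with a mean of -0.68 ± 0.071 (SD, n = 4) and a limma adjusted p of 0.0518. The second probe averaged -0.65 ± 0.077 (SD, n = 4). In the processed signals of the scanner software the means were larger in size, at -1.33 for the brighter probe and -1.22 for the second. The size of the Ppp1r8 difference thus depends on the processing. Both probes were lower in the knockout channel on all 4 arrays. Whether either probe lies in the deleted part is not known here.

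The promoters of the 4 albumin family genes are shown so that the letters near the start sites of these related genes can be compared. RefSeq promoter entries of the mouse build GRCm38.p6 were found for 6 of the 8 genes, not for Zhx2 and H19. The 250 bases before each start site are given 5′ to 3′ on the strand of the gene, with each match to the motif GTTAAT, searched on both strands, in capitals.
Alb (chr5:90460620-90460869, plus strand): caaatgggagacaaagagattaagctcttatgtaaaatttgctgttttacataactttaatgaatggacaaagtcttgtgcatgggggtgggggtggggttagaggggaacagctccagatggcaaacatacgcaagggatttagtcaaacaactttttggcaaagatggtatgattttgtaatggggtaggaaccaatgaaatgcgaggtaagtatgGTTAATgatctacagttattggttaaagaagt
Afp (chr5:90490464-90490713, plus strand): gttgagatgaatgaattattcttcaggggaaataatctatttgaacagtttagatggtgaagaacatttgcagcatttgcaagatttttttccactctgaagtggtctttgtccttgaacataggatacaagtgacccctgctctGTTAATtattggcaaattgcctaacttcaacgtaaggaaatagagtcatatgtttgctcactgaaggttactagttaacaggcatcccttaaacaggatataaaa
Afm (chr5:90518699-90518948, plus strand): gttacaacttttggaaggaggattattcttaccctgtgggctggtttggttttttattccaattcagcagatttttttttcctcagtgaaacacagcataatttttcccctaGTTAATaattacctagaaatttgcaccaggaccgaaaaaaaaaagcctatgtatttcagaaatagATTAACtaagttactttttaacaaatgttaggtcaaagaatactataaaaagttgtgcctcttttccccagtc
Gc (chr5:89457899-89458148, minus strand): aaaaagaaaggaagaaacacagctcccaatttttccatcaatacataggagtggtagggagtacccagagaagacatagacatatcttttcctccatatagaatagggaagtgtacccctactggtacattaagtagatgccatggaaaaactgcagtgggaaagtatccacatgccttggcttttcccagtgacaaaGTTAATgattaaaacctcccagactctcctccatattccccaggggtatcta

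GTTAAT was present in the windows of Alb at position -32, Afp at -105, Gc at -52 and Afm at -138, counted from the RefSeq start to the first base of the match. Afm held a further match on the opposite strand at -73, where the letters read ATTAAC. All 4 albumin family windows thus held these letters, which was found in 6.43% of the 32851 promoter windows of the same length. The windows of Zfhx3 and Gpc3 held no GTTAAT. TTGCNNAA, the letters searched for C/EBP factors, was present in the Alb and Afp windows and in 9.56% of all windows. CCAAT was present in the windows of Alb, Afp, Afm, Gc and Gpc3 and in 33.8% of all windows, and TATAAA in those of Afp and Afm and in 12.4% of all windows. All motifs were searched on both strands, and no match overlapped that of another motif. A match is a string of letters and was not measured as a bound site.

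In the comparison of knockout with control livers, Afp had less signal in the knockout channel on every array, whereas Alb, after loess, had more signal in the knockout on arrays 3 and 4 and less on arrays 1 and 2. Afm, both Gc probes and Zfhx3 lay close to a log2 ratio of 0 on average. Zhx2 was not well above background in any of the 8 mice, and H19 and Gpc3 were detected in only some mice. No member passed the test at the threshold used.

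The test was made with limma across the 20833 probes with signal well above background in 3 or 4 mice of the same genotype, with a term for the dye and Benjamini-Hochberg adjustment over all of these probes. Of the 11 member probes, 6 passed this filter on dim probes (1 each of Alb, Afp, Afm and Zfhx3, and both of Gc), and the 5 probes of Zhx2, H19 and Gpc3 did not. At an adjusted p of 0.05, 0 of the 6 tested member probes were called, against 39 of all tested probes (0.187%). At an unadjusted p under 0.05, 2 of the 6 passed, namely Alb and Afp, against 23.2% of all tested probes. The same 2 probes passed at an adjusted p of 0.1, a second and laxer threshold, against 6.73% of all tested probes. After normexp and loess, Afp alone among the 6 had the same sign on all 4 arrays, as had 24.5% of all tested probes. In the processed signals of the scanner software, Alb also lay above 0 on all 4 arrays, by only 0.0034 on array 1. Zfhx3 also lay below 0 on all 4 arrays there. The share of all tested probes with the same sign is not given for the processed signals.

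**Figure D1:**
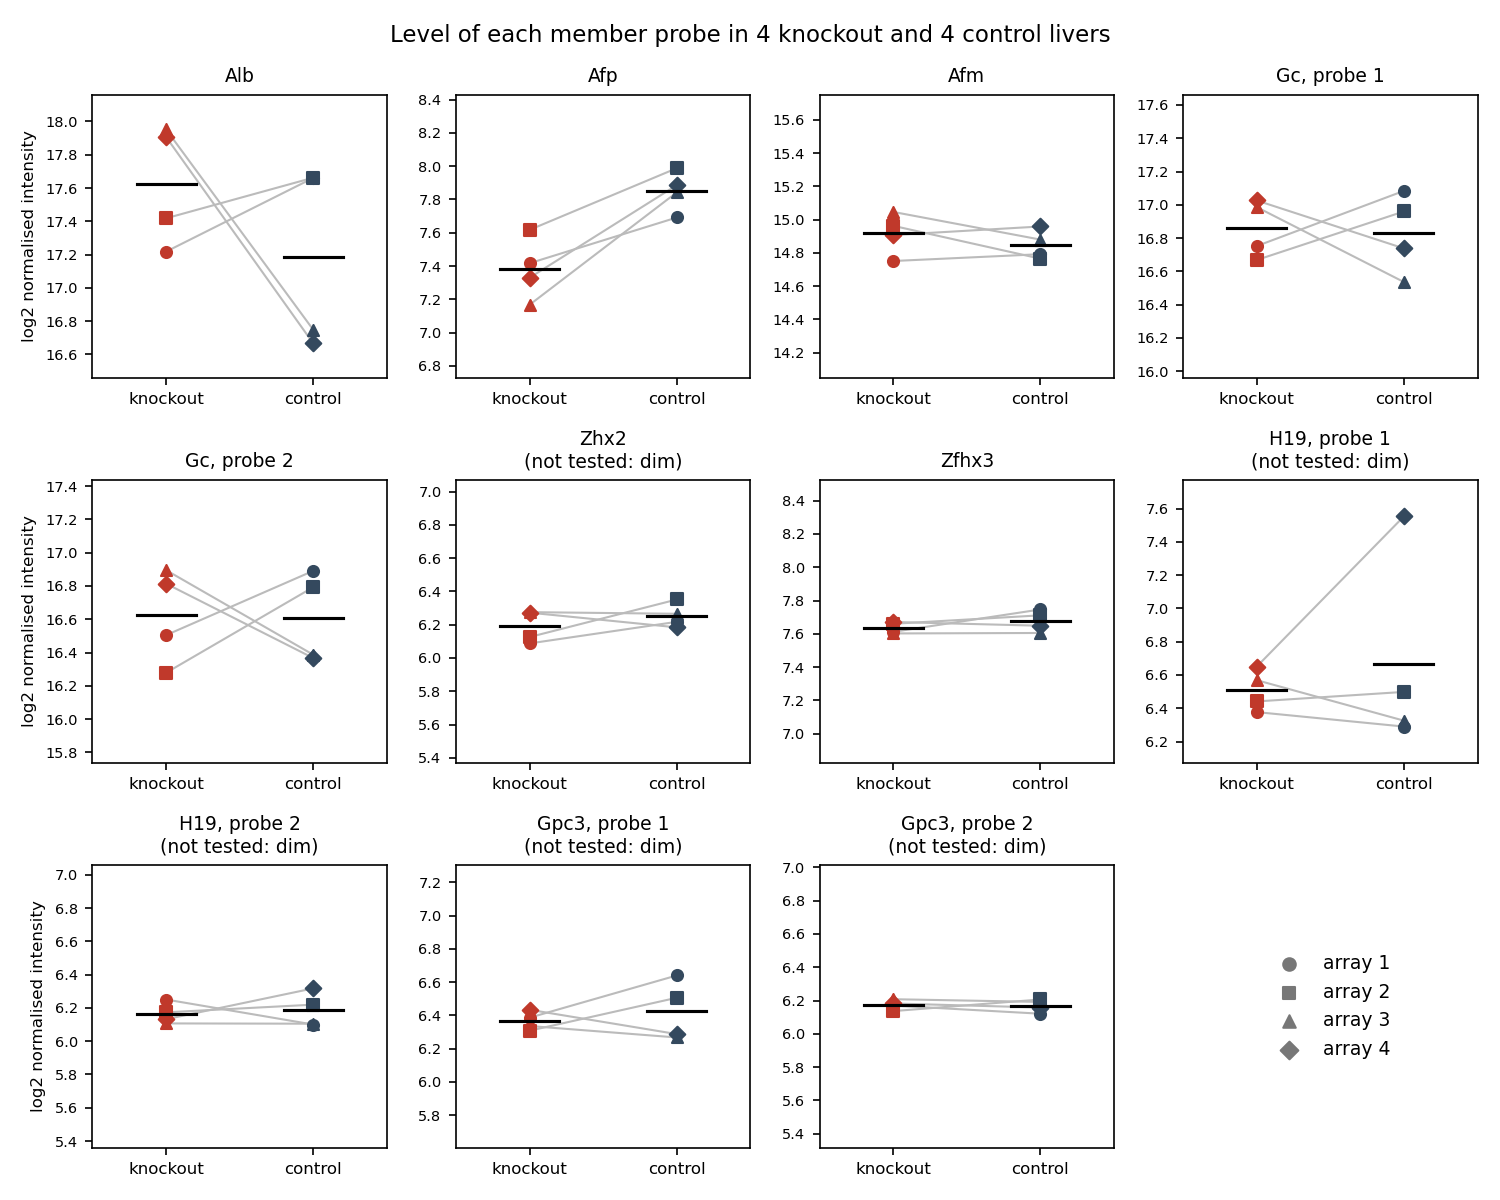
Log2 normalised intensity (y axis, each panel with its own centre) of each of the 11 member probes in the 4 knockout livers (red, left) and the 4 control livers (blue, right). Grey lines join the 2 mice that shared an array, marker shapes give the array, and black bars are group means. The Afp values of the knockout livers all lie below those of the control livers, while the Alb lines of arrays 1 and 2 slope against those of arrays 3 and 4.

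Afp, the fetal carrier protein and the target of both repressors, was read by 1 probe sequence at chromosome 5, 90937781 to 90937840 of build mm9, printed in 10 spots on each array. Its processed signals, the background-subtracted and dye-normalised intensities of the scanner software, were 126, 128, 85.9 and 96.0 units in the knockout mice of arrays 1 to 4, against 165, 181, 189 and 185 units in the control mice. Every knockout value lay below every control value. The probe was well above background in all 8 mice, so Afp transcript was measured in both genotypes.

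After normexp background correction and loess, the log2 ratio of Afp in knockout over control was -0.27, -0.37, -0.68 and -0.56 on arrays 1 to 4. The mean was -0.47 ± 0.18 (SD, n = 4), or 0.722 times the control level. The fitted value had an SE of 0.052, a 95% interval from -0.61 to -0.33 and a limma adjusted p of 0.0555, just above the threshold. An exact sign-flip test over the 4 arrays gave a two-sided p of 0.125, the smallest that 4 arrays allow.

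Afp was lower in the knockout in both dye orientations, with means of -0.32 where the knockout carried Cy3 and -0.62 where it carried Cy5. The spread of the 10 Afp spots within an array was smaller than that between arrays, with SDs over all 10 spots of 0.042 to 0.079. On array 1, 1 outlier spot was left out of the Afp ratio but not of its SD over spots. The log2 level of Afp was 7.42, 7.62, 7.17 and 7.33 in the knockout mice, with a mean of 7.38 ± 0.19, and 7.69, 7.99, 7.84 and 7.89 in the control mice, with a mean of 7.85 ± 0.12 (SD, n = 4 each). The Afp groups did not overlap. Of all tested probes, 5.17% had all 4 knockout levels below all 4 control levels.

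The size of the Afp difference was larger in the processed signals, which differ from the main setting in background correction, offset and normalisation together. With the processed signals, the ratios of Afp were -0.38, -0.50, -1.14 and -0.95, with a mean of -0.74 ± 0.36 (SD, n = 4), or 0.598 times the control level, and a limma adjusted p of 0.0643. The main setting adds 50 units to every corrected signal, which by construction draws the ratio of a probe as dim as that of Afp towards 0. With normexp and its offset left out and loess kept, the Afp value was -0.50. No background was subtracted in that setting, so its value is not free of such a pull towards 0. A fit of the 8 single-channel intensities gave Afp an adjusted p of 0.0042, but that fit called 17.7% of all probes it tested. Without the dye term the adjusted p of Afp was 0.106. Tested probes of about the same brightness as Afp (2083 probes) had median ratios of -0.021, -0.013, 0.018 and 0.021 on the 4 arrays.

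**Figure D2:**
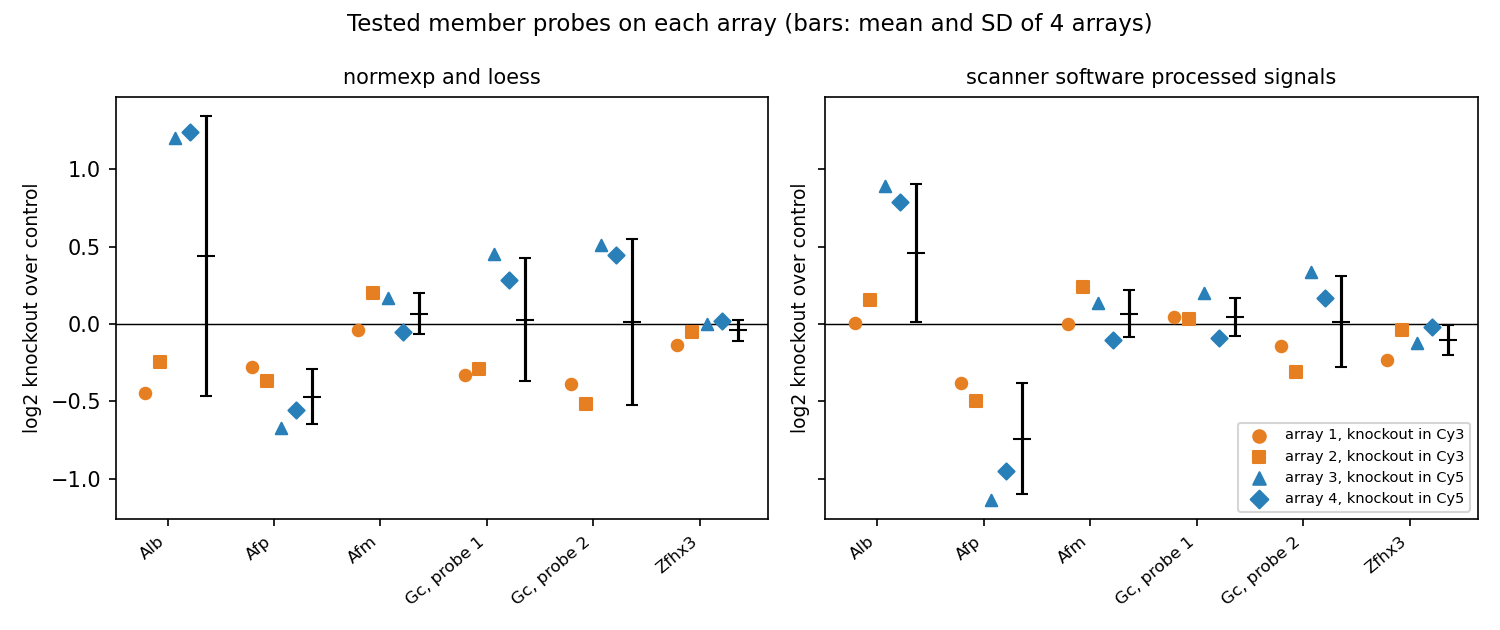
Log2 knockout over control (y axis) of the 6 tested member probes on each of the 4 arrays, after normexp and loess (left) and from the processed signals of the scanner software (right). Orange points are arrays with the knockout in Cy3 and blue points arrays with the knockout in Cy5, and black bars give the mean and SD of 4 arrays. The Afp points all lie below 0 in both panels, while the Alb points split by dye orientation on the left.

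Alb, which encodes serum albumin, was read by 1 probe at chromosome 5, 90901598 to 90901657 of mm9. The sequence of this probe, on which every Alb value rests, is given in the orientation of the array file, in lower case.
Alb probe: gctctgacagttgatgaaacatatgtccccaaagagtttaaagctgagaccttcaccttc

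The processed signal of Alb was 206372, 209213, 256754 and 198612 units in the knockout mice of arrays 1 to 4, against 205886, 187788, 138223 and 114748 units in the control mice. The lowest knockout value lay below the highest control value, so the Alb groups overlapped. On arrays 1 and 2 the Alb signals of both genotypes were close, and on arrays 3 and 4 the control signals were the lowest of the 8.

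After normexp and loess the Alb log2 ratio was -0.44, -0.24, 1.20 and 1.24, with a mean of 0.44 ± 0.91 (SD, n = 4). The spread between arrays was thus larger than the mean. The orientation means of Alb were -0.34 with the knockout in Cy3 and 1.22 with the knockout in Cy5. Because the dye term takes up this difference, the limma fit gave an SE of 0.056, with 0.0595 as the adjusted p. Without the dye term the SE was 0.34 and the adjusted p 0.611, and the exact sign-flip test gave a two-sided p of 0.5. The difference between orientations itself had an unadjusted limma p of 9.42e-05 and an adjusted p of 0.12, and 0 probes passed an adjusted p of 0.05 for it in limma, against 4521 at an unadjusted p under 0.05. Each orientation held its own mice, so dye and mouse cannot be told apart.

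Other bright probes differed between dye orientations in the same direction as Alb. The brightest 1% of tested probes (209 probes, Alb and both Gc probes among them) had median log2 ratios of -0.35, -0.37, 0.34 and 0.45 on arrays 1 to 4. The median of all tested probes lay between -0.011 and 0.017 on the 4 arrays. In the processed signals the medians of the same bright probes were -0.078, -0.12, 0.15 and 0.17. There the Alb ratios were 0.0034, 0.16, 0.89 and 0.79, with a mean of 0.46 ± 0.45 (SD, n = 4) and a limma adjusted p of 0.0836. Across all tested probes, 23.7% had orientations of opposite sign with both arrays of each orientation agreeing, as Alb and both Gc probes had after loess. The part of brightness in the Alb ratios was not tested.

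**Figure D3:**
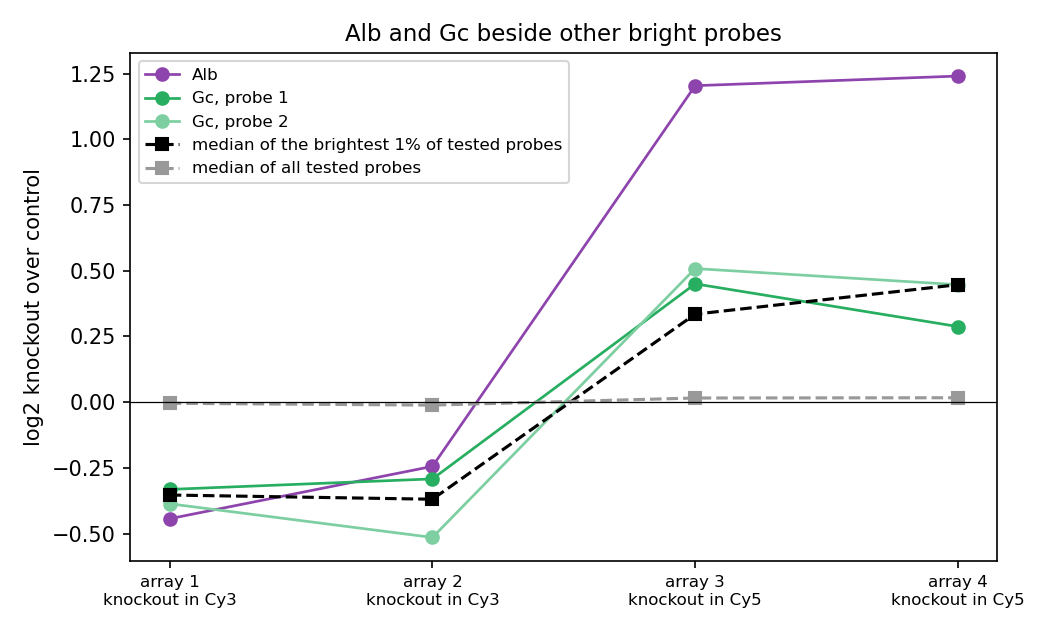
Log2 knockout over control (y axis) of Alb and of both Gc probes on each of the 4 arrays (x axis), beside the median of the brightest 1% of tested probes and the median of all tested probes. The bright probes lie below 0 where the knockout carried Cy3 and above 0 where it carried Cy5, and Alb lies furthest above their median on arrays 3 and 4.

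Afm encodes afamin, a plasma carrier of vitamin E, and its probe lay at chromosome 5, 90982490 to 90982549 of mm9. The processed signal of Afm was 32294, 32780, 37553 and 30217 units in the knockout mice, against 32352, 27764, 34170 and 32492 units in the control mice. The Afm groups overlapped. The log2 ratios were -0.041, 0.20, 0.17 and -0.051, with a fitted value of 0.068 ± 0.071 (SE), a 95% interval from -0.12 to 0.26 and a limma adjusted p of 0.614.

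Gc encodes the vitamin D binding protein and was read by a pair of probes, at chromosome 5, 89846592 to 89846651 and 89864029 to 89864558 of mm9. The first Gc probe had processed signals of 159483, 131266, 149225 and 124975 units in the knockout mice, against 154549, 128527, 129698 and 133255 units in the control mice. After normexp and loess its log2 ratios were -0.33, -0.29, 0.45 and 0.29, and those of the second Gc probe were -0.39, -0.51, 0.51 and 0.45. The fitted values were 0.029 ± 0.053 and 0.014 ± 0.051 (SE), with 95% intervals from -0.11 to 0.17 and from -0.12 to 0.15 and limma adjusted p of 0.781 and 0.895. Both Gc probes followed the dye orientation of the array, and their genotype groups overlapped. In the processed signals the first Gc probe had ratios of 0.045, 0.030, 0.20 and -0.093, and the second had -0.14, -0.31, 0.34 and 0.17. The split by orientation thus remained in the second Gc probe and not in the first.

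On build GRCm38.p6 the start of Afp lies 29.8 kb and that of Afm 58.1 kb downstream of the start of Alb, and the start of Gc, on the minus strand, lies on the other side, at -1003.0 kb. The nearest tested gene beyond Afm on the mm9 positions of the array was Albfm1, an albumin superfamily member, with ratios of -0.36, -0.86, -0.81 and -0.043. Albfm1 was lower in the knockout channel on all 4 arrays, with a fitted value of -0.52 ± 0.16 (SE) and a limma adjusted p of 0.17. Further neighbours within 500 kb of the cluster were Rassf6, with 0.10 ± 0.12, and Gm9958, with 0.23 ± 0.076 (SE), and their limma adjusted p were 0.634 and 0.189. Slc4a4, the tested neighbour of Gc and a sodium bicarbonate cotransporter gene, had a fitted value of -0.0040 ± 0.057 (SE). Among these loci the Afp ratio was therefore not shared in sign by Alb, Afm and Gc on average.

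Zhx2, the zinc fingers and homeoboxes factor that represses Afp in adult mouse liver, was read by 1 probe at chromosome 15, 57670417 to 57670476 of mm9. It was well above background in 0 of 8 mice. Its processed signals were 3.93, 5.16, 11.2 and 9.86 units in the knockout mice, against 6.21, 10.5, 11.7 and 6.51 units in the control mice, so no fold change is given. Both genotypes were thus at the level of the background for Zhx2.

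Zfhx3, the AT-motif binding factor, was read by a probe at chromosome 8, 111485354 to 111485413 of mm9 and was well above background in all 8 mice. Its processed signals were 117, 114, 109 and 115 units in the knockout mice, against 138, 117, 119 and 117 units in the control mice. The Zfhx3 groups overlapped in the log2 levels. With the processed signals the ratios were -0.24, -0.039, -0.12 and -0.017, with a mean of -0.10 ± 0.099 (SD, n = 4) and a limma adjusted p of 0.445. The log2 ratios were -0.13, -0.051, -0.0028 and 0.023, with a fitted value of -0.041 ± 0.047 (SE), a 95% interval from -0.17 to 0.086 and a limma adjusted p of 0.644.

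A list of other Afp repressors and ZHX family members held 9 genes, all tested, and 0 were called in limma at an adjusted p of 0.05, with 1 higher and 2 lower at an unadjusted p under 0.05, against 12.9% and 10.3% of all tested probes. The median fitted value of these repressors was -0.12, with 7 of 9 below 0, beside a median of 0 over all tested probes. Nfix, a nuclear factor I family gene, had -0.22, -0.27, -0.28 and -0.24 on the 4 arrays, a fitted value of -0.25 ± 0.046 (SE) and a limma adjusted p of 0.0862. Nfic, of the same family, had 0.19 ± 0.047 (SE), with a ratio above 0 on each array and an adjusted p of 0.127 in limma. Smad4, the common mediator of TGF-beta signalling, and Zhx3, a partner in the ZHX family, both had -0.24, with limma adjusted p of 0.186 and 0.363. Zhx1, which lies 209 kb from the Zhx2 probe, had 0.048 ± 0.062 (SE). Zbtb20, a zinc finger repressor needed for postnatal Afp silencing in mice, had ratios of 0.36, -0.14, -0.46 and 0.14, with a fitted value of -0.025 ± 0.14 (SE).

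H19, an imprinted long non-coding RNA that is abundant in fetal liver, was read by a pair of probes on chromosome 7, at 149761492 to 149761551 and 149762417 to 149762476 of mm9. The first H19 probe was well above background in 2 of 4 knockout mice and 2 of 4 control mice. Its processed signals were 16.7, 14.2, 25.6 and 35.0 units in the knockout mice, against 10.8, 21.0, 15.8 and 138 units in the control mice. The control mouse of array 4 stood far above the other 7 mice, and the remaining values of both genotypes overlapped. The second H19 probe was well above background in 0 of 8 mice, that control mouse included, and neither probe was tested.

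Gpc3 encodes glypican 3, a cell surface heparan sulphate proteoglycan, and was read by probes on chromosome X at 49625740 to 49625799 and 49740892 to 49740951 of mm9. The first Gpc3 probe had processed signals of 13.7, 15.4, 21.7 and 25.0 units in the knockout mice, against 41.3, 20.5, 14.9 and 8.11 units in the control mice. It was well above background in the knockout mice of arrays 3 and 4 and in the control mice of arrays 1 and 2, which is the Cy5 channel of every array and the Cy3 channel of none. The second Gpc3 probe was well above background in 0 of 8 mice. The genotype groups of Gpc3 overlapped and no test was made.

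The lists of related genes show what else of fetal liver expression was detected. Of 24 fetal liver and imprinted growth genes on the array, 13 were tested, beside 20833 of all 39429 probes. The other 11 were too dim, among them Igf2, Dlk1, Peg3, Grb10, Igf2bp1, Igf2bp2, Igf2bp3, Lin28b and Hmga2. None of the 13 was called in limma at an adjusted p of 0.05. At an unadjusted p under 0.05, 0 passed, against 23.2% of all tested probes. Their median was 0.043. Spink1, a trypsin inhibitor gene, had 1.35, 0.33, 0.93 and -0.20 on the 4 arrays, with a fitted value of 0.60 ± 0.26 (SE). Its highest ratio was on array 1, where pancreatic acinar transcripts had a median of 4.21, and a link between them was not tested. Meg3, an imprinted non-coding RNA, had 0.078, 1.05, -1.75 and 2.82 on the 4 arrays. Meg3 varied more between arrays than between genotypes, with a fitted value of 0.55 ± 0.79 (SE). Cdkn1c, an imprinted cell cycle inhibitor, had 0.21 ± 0.17, and Pkm, a glycolytic enzyme gene, had -0.096 ± 0.091 (SE). Igf2, which shares its enhancers with H19 and lies 78.2 kb from it, was well above background in 0 of 8 mice. Mrpl23, a mitochondrial ribosomal protein gene on the other side of H19, at -34.9 kb, had 0.011 ± 0.065 (SE), and Gpc4, the glypican gene next to Gpc3, had -0.054 ± 0.061 (SE).

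All 26 listed activators of Alb and Afp were tested, and 0 were called in limma at an adjusted p of 0.05. At an unadjusted p under 0.05, 4 were higher and 1 was lower, against 12.9% and 10.3% of all tested probes. The median of the activators was 0.069, with 18 above 0 and 8 below, beside a median of 0 over all tested probes. Esrra, an orphan nuclear receptor, had 0.25, 0.40, 0.39 and 0.32, a fitted value of 0.34 ± 0.053 (SE) and a limma adjusted p of 0.0726. Dbp, a circadian factor that binds the albumin promoter, had 0.52, 0.84, 1.25 and 0.15, with 0.69 ± 0.20 (SE) and a limma adjusted p of 0.154. Foxa3, a forkhead factor of hepatocytes, had 0.23, -0.11, -0.84 and -1.37, with -0.52 ± 0.12 (SE) and a limma adjusted p of 0.107. Esrrg and Cebpb had 0.39 ± 0.11 and -0.35 ± 0.19 (SE), with the 4 arrays of Cebpb divided in sign. Cebpa, a C/EBP factor of hepatocytes, had 0.15 ± 0.059 (SE) and was not called.

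**Figure D4:**
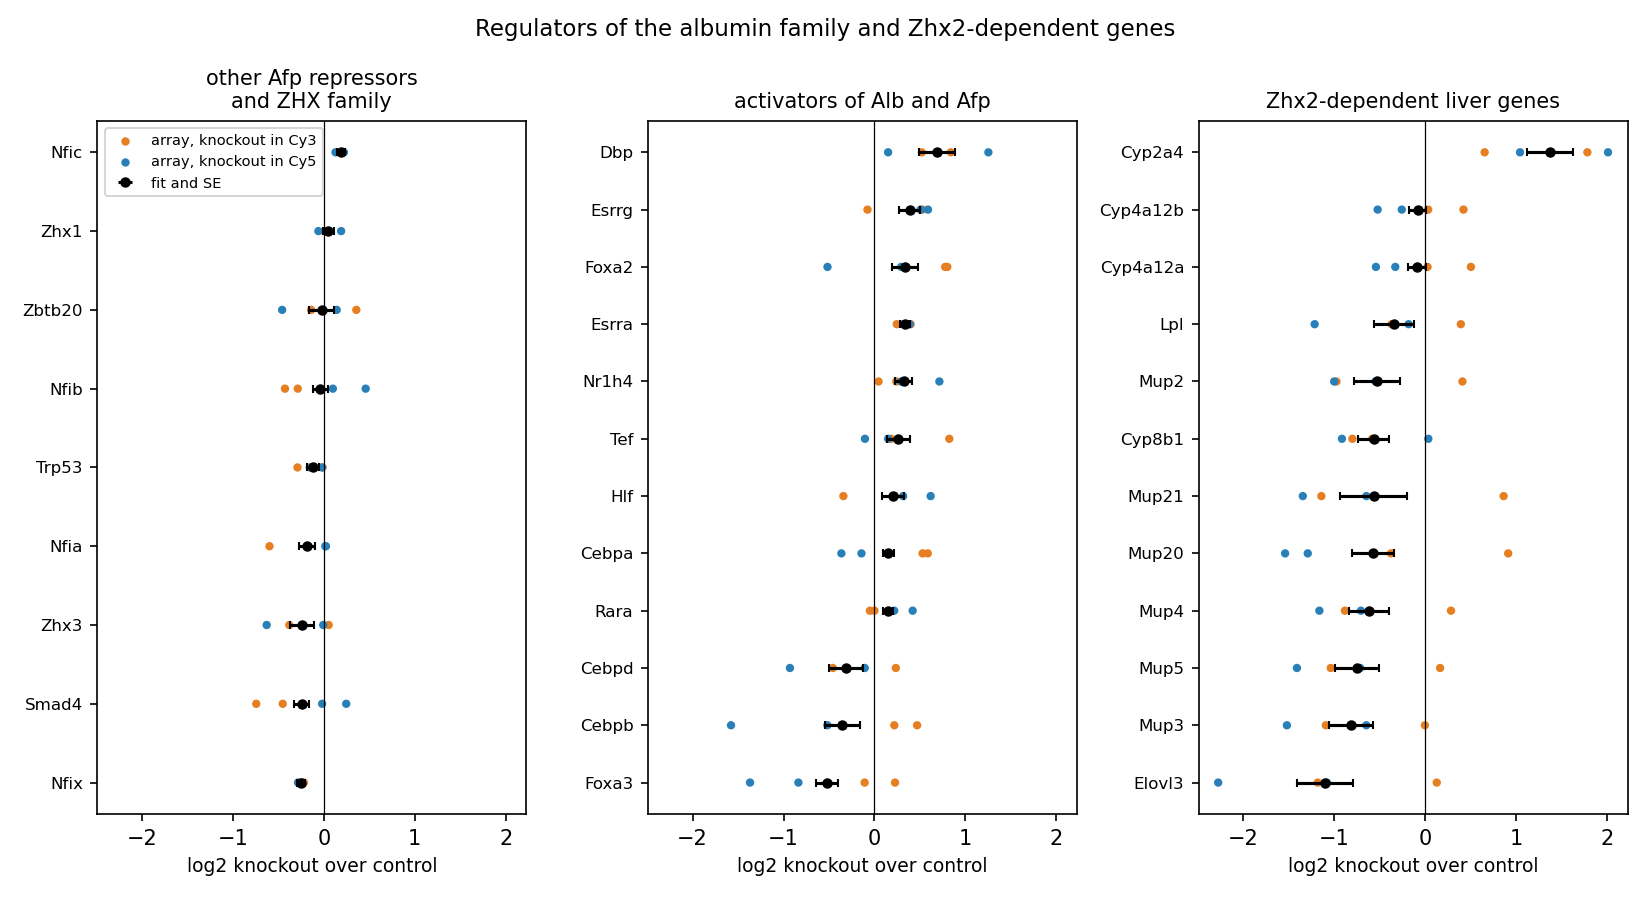
Log2 knockout over control (x axis) of up to 12 tested genes with the largest absolute fitted value from each of 3 lists, other Afp repressors and the ZHX family (left), activators of Alb and Afp (middle) and liver genes that depend on Zhx2 in mice (right). Coloured points are the 4 arrays, orange with the knockout in Cy3 and blue with the knockout in Cy5, and black points with bars are the fitted value and its SE. Of the genes that depend on Zhx2, Cyp2a4 lies above 0 on all 4 arrays and the others are fitted below 0.

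Because the Zhx2 transcript itself could not be read, genes reported to depend on Zhx2 in mouse liver were listed beside it. Of 13 on the array, 12 were tested and 0 were called in limma at an adjusted p of 0.05. Of the 12, 11 were below 0, against 50% of all tested probes, and the median was -0.57, beside 0. The list was not sorted by the direction in which a gene depends on Zhx2, so this count gives no reading of Zhx2. At an unadjusted p under 0.05, 1 was higher and 5 were lower, against 12.9% and 10.3% of all tested probes. Cyp2a4, a female-biased steroid 15-alpha-hydroxylase gene, had 0.66, 1.79, 2.01 and 1.04, with a fitted value of 1.37 ± 0.26 (SE) and a limma adjusted p of 0.0893. Elovl3, a male-biased fatty acid elongase gene, had 0.13, -1.18, -2.28 and -1.08, with -1.10 ± 0.31 (SE) and a limma adjusted p of 0.144. The male-biased urinary protein genes Mup3 and Mup5 had -0.82 ± 0.24 and -0.75 ± 0.24 (SE), with limma adjusted p of 0.158 and 0.176. The Mup genes are near-identical copies whose probes can share signal, as are Cyp2a4 and Cyp2a5, so the values of these genes are uncertain and not independent. Array 1 differed from the others, with a list median of 0.40 there and -0.73, -1.19 and -0.60 on arrays 2, 3 and 4.

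Plasma carriers and the handling of vitamins D and E were the one list with a call. Serpina7, the thyroxine-binding globulin, rose in the knockout, with 0.35, 0.25, 1.27 and 1.32 on the 4 arrays, a fitted value of 0.80 ± 0.049 (SE) and a limma adjusted p of 0.0484. It was above 0 in both orientations, but its call was lost in several settings. The limma adjusted p of Serpina7 was 0.09 to 0.22 where any 1 array was left out, 0.0529 with normexp fitted on every spot, 0.0533 with 1 probe per gene, 0.0604 with the processed signals, 0.184 without the dye term and 0.204 with processed signals and no dye term. Serpina6, the corticosteroid-binding globulin, had 0.62 ± 0.20 (SE) and Rbp4, the plasma retinol carrier, 0.33 ± 0.084 (SE), with limma adjusted p of 0.173 and 0.127. Cyp27a1, a sterol 27-hydroxylase that can also 25-hydroxylate vitamin D, had -0.31, -0.30, -0.70 and -0.36, with -0.42 ± 0.073 (SE) and a limma adjusted p of 0.0816. Of 7 tested genes of this list, 1 was called, against 0.187% of all tested probes, and the median was 0.18. At an unadjusted p under 0.05 in limma, 3 were higher and 1 was lower, against 12.9% and 10.3% of all tested probes. Of the albumin receptors, Fcgrt, the neonatal Fc receptor that rescues albumin from degradation, had -0.044 ± 0.062 (SE), and Scarb1 had -0.19 ± 0.061 (SE). Of the 5 tested receptor and handling genes, 0 were called in limma at an adjusted p of 0.05, 1 was lower at an unadjusted p under 0.05, against 10.3% of all tested probes, and the median was -0.044.

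Near Zhx2, Derl1, 32.7 kb away, had 0.18 ± 0.053 (SE) with a limma adjusted p of 0.153, and Tbc1d31 had 0.13 ± 0.059 (SE). The transcript 9130401M01Rik, 183.5 kb away, was above 0 on each of the 4 arrays, at 0.25, 0.64, 0.34 and 0.48, with a fitted value of 0.43 ± 0.083 (SE) and a limma adjusted p of 0.0938. No neighbour of a member named here was called at 0.05.

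The genes most like Afp over the 4 arrays were found by the Euclidean distance between their log2 ratios and those of Afp, among 16235 genes with a tested probe. The nearest was Ptcd3, with -0.26, -0.39, -0.65 and -0.57 and a distance of 0.039. Abca2 and Tsacc followed at distances of 0.091 and 0.116. These fitted values were -0.47, -0.49 and -0.49 for Ptcd3, Abca2 and Tsacc, beside -0.47 for Afp. With only 4 arrays, likeness describes these arrays alone.

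Markers of liver cell types were set beside these results. Of 9 tested biliary and progenitor markers, 8 were above 0, against 50% of all tested probes. Among these markers 0 were called in limma at an adjusted p of 0.05 and 5 were higher at an unadjusted p under 0.05, against 12.9% of all tested probes. Krt19, a keratin of bile ducts, had 0.14, 0.52, 0.99 and 0.90, with a limma adjusted p of 0.0583. Prom1, Spp1 and Cd24a had 0.40 ± 0.048, 0.37 ± 0.056 and 0.28 ± 0.064 (SE). The summed processed signal of this list was 1423 to 1792 units in the knockout mice and 1040 to 1530 units in the control mice. Sox9, the 1 marker below 0, had -0.19, -0.76, 0.041 and 0.088, with a fitted value of -0.21 ± 0.11 (SE). Epcam was well above background in 4 knockout mice and 1 control mouse, with 0.094 ± 0.056 (SE) and a limma adjusted p of 0.387. In the processed signals the mean was 0.42 for Epcam and -0.37 for Sox9. The median of the biliary and progenitor list was 0.17 in the main setting and 0.42 in the processed signals. Over all tested probes these medians were 0 and -0.011. Of 11 hepatocyte markers, 0 were called in limma at an adjusted p of 0.05, and 1 was higher and 2 were lower at an unadjusted p under 0.05, against 12.9% and 10.3% of all tested probes. Their median was -0.036, and the summed signal was 897800 to 1015000 units in the knockout mice and 788500 to 1012000 units in the control mice. Markers of macrophages, endothelial cells and stellate cells had medians of -0.056, -0.098 and -0.040. Of these, 6 of 8, 7 of 7 and 4 of 7 were below 0, against 50% of all tested probes. None of them was called in limma at an adjusted p of 0.05, and 1 macrophage marker was higher at an unadjusted p under 0.05, against 12.9% of all tested probes. The 10 tested erythroid and blood cell markers had a median of -0.14, with 9 of 10 below 0, against 50% of all tested probes. Several of them are related globin genes whose probes can share signal, so this count is not of independent genes. The list medians were -0.12, 0.12, -0.60 and 0.007 on arrays 1 to 4. Alas2, with the largest value, had -1.56 ± 0.42 (SE) and a limma adjusted p of 0.137. In limma 0 were called at an adjusted p of 0.05 and 2 were lower at an unadjusted p under 0.05, against 10.3% of all tested probes.

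Pancreatic acinar transcripts differed between single mice. In limma 0 of 14 passed an adjusted or an unadjusted p of 0.05, against 0.187% and 23.2% of all tested probes. Their median log2 ratio was 4.21, -2.69, -0.16 and -1.06 on arrays 1 to 4, and their summed signal was 4157 to 67270 units in the knockout mice and 5159 to 14120 units in the control mice. Leaving out array 1, where this ratio was largest, gave Afp -0.49 ± 0.071 and Alb 0.49 ± 0.066 (SE), with limma adjusted p of 0.117 and 0.113. The part of the biliary and pancreatic transcripts in the Afp and Alb values was not tested.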

How the data were processed

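Per the labels, each two-colour array held liver RNA of 1 knockout and 1 control mouse. Per the file headers, Agilent Feature Extraction 10.7.3.1 made the deposited files, which hold mean and local background intensity per spot and dye, processed intensity (background-subtracted, detrended and dye-normalised) and flags. The authors' deposited value table holds log2 ratios, and all 43020 values on each array lay within 0.001 of log2 knockout over control of the processed signals. Its column medians were -0.05, 0.14, -0.18 and -0.18, and no centring had been added.

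Background was corrected with normexp (offset 50), the parameters of which were fitted per array and dye without spots 20 or more units below their local background. Fitted on every spot of array 1, the normexp background mean was -273 for Cy3 and -184.6 for Cy5. Loess within arrays followed, fitted without control spots. These and feature outliers were dropped, and replicate spots averaged. The filter asked for signal well above background in 3 or 4 mice of the same genotype (20833 probes). Ratios were fitted in limma 3.58.1 under R 4.3.3 with a dye term and a knockout effect whose sign followed the dye. Tests were two-sided, with Benjamini-Hochberg adjustment over all tested probes and a threshold of 0.05. The unit is the mouse pair of an array (n = 4). Standard errors leave out any difference between orientations. Log2 levels are separate channels after loess and Aquantile scaling. The fit was also run on data simulated from its own model, which cannot show how well that model describes these arrays. Of the spots, 30708 matched a RefSeq entry for current symbols, and the others kept the array's names.

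The members and lists were chosen with earlier results of these data known. Of each list the text names up to 4 tested genes with the largest absolute ratio of the brightest probe, up to 6 neighbours per locus within 500 kb, nearest first, and the 3 genes most like the member of largest ratio. Esrra, Cebpa, Zbtb20, Zhx1, Epcam and Sox9 are named beyond this rule for their roles or values and were chosen after their values were seen. The alternatives varied background correction, normalisation, dye term, filter, unit, variance model and arrays. Array positions are on mm9, and promoters on GRCm38.p6. Some genes of the lists count in the totals but are not reported here by name.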

Additional observations from a re-analysis of the deposited data

Results flagged for a closer look

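The first H19 probe had a log2 level of 7.55 in the control mouse of array 4, which stood apart from the other 3 control mice by a gap test within the group. The other control mice had 6.29, 6.50 and 6.33, and the knockout mice 6.38, 6.44, 6.57 and 6.65. Of 33 sets of 4 values examined over the members, 1 was flagged, and chance alone flags about 1 in 20 such sets. The second H19 probe had 6.32 in the same mouse and was not well above background there.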

How the results depend on the processing

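Afp stayed below 0 under all 15 alternatives, from -0.74 (processed signals) to -0.43 (normexp fitted on every spot), and Alb stayed above 0, from 0.39 to 0.49. Changing only the dye term, filter, unit or variance model, or fitting separate channels, left each member's fitted value unchanged and altered only its SE and p. The sign of a value in those settings is thus no separate check. In limma both passed an adjusted p of 0.05 in the separate-channel fit (Afp -0.47, p 0.0042, and Alb 0.44, p 0.0043) and without the filter on dim probes (Afp -0.47, p 0.0382, and Alb 0.44, p 0.0449). With trend and robust eBayes Afp passed (-0.47, p 0.0313) and Alb did not (p 0.281). Leaving out 1 array gave -0.50 to -0.44 for Afp and 0.39 to 0.49 for Alb, and Gc gave -0.012 to 0.069, reversed to -0.012 without array 3. Afm and Zfhx3 kept their sign and stayed above 0.05 in every alternative. The count of called probes, 39 in the main setting, was 0 with normexp fitted on every spot, 153 without background correction, 10 with processed signals, 336 with median centring, 64 without the dye term, 3676 with separate channels, 504 without the filter, 185 with detection in all 8 channels, 0 with 1 probe per gene, 763 with trend and robust eBayes, and 74 with processed signals and no dye term, an alternative added after seeing the data. Leaving out any 1 array gave 0 to 0 called probes, and 0 to 221 at an adjusted p of 0.1, against 1402. The settings with normexp on every spot and with 1 probe per gene gave 787 and 910 probes at 0.1. The cause of these shifts was not tested. Zhx2, H19 and Gpc3 had no tested probe and so no value here. Their signal over background was too low for a test.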
